A study of Mus musculus with 5 samples.

Results

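The genes described here encode sensors of double-stranded RNA and the editor that limits their activation. The 8 members are Ddx58 (also called Rigi), Ifih1, Dhx58, Ddx60, Tlr3, Eif2ak2, Zbp1 and Adar. Members were found by symbol among the probe sets that the platform annotation ties to exactly 1 gene. Each of the 8 had 1 probe set, out of 23521 such probe sets covering 22180 genes. The arrays came from mouse embryonic fibroblasts (MEFs), described as primary, that lack endogenous STING and carry the introduced STING variant R284S. All 5 groups share that background, and no group holds wild-type STING or cells without STING. The groups are vehicle, Compound C (an inhibitor of AMPK and of BMP type I receptors), doxorubicin (a topoisomerase II poison), GSK 690693 (an inhibitor of AKT kinases that also acts on AMPK) and tofacitinib (a JAK inhibitor). Cells were exposed for 9 hours, and each group is 1 array. Doses, the vehicle, the vector of the variant and the number of cell clones were not given in the sources used here.

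Double-stranded RNA is a sign of viral replication and is read by several separate systems. In the cytosol the helicases RIG-I (Ddx58) and MDA5 (Ifih1) bind it and signal through the mitochondrial adaptor MAVS to TBK1, IRF3 and interferon genes, while LGP2 (Dhx58) tunes both and DDX60 has been linked to RIG-I signalling. TLR3 reads it in endosomes through TRIF (Ticam1), the kinase PKR (Eif2ak2) stops translation through eIF2 alpha, ZBP1 binds Z-form nucleic acid and can start RIPK3-dependent cell death, and ADAR1 (Adar) edits adenosines in double-stranded RNA and so keeps the cell's own RNA from being sensed. Most of these genes are themselves induced by interferon, through the factor ISGF3, which holds STAT2 and IRF9 and binds interferon-stimulated response elements (ISREs). STING carries the signal of cytosolic DNA and is not a sensor of double-stranded RNA.

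The promoter stretches are shown because interferon induction acts there. Whether they bear on the lower readings described below was not tested. RefSeq windows of the build GRCm38.p6, from 250 bases before to 50 after a start site, were at hand for 6 of the 8 genes, and for Adar there were several. The ISRE core searched was GAAA-NN-GAAA, N being any base, on both strands, and 4 of the 6 genes held it, namely Ddx58, Ddx60, Eif2ak2 and Ifih1. Among all 32851 windows 3.44% held it, and among all 27025 genes with a window 3.99%. Tlr3 and Adar had no such match in these windows, and Dhx58 and Zbp1 were not searched. In the lines that follow, capitals mark the match, each stretch is written 5′ to 3′ on the strand of the gene, and position 1 is the annotated start.
Ddx60, chr8:61928014-61928086, plus strand, positions −73 to −1: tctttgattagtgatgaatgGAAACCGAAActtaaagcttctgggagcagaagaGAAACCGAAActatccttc
Eif2ak2, chr17:78882535-78882564, minus strand, positions 9 to 38: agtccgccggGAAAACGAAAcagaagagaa
Ifih1, chr2:62646206-62646235, minus strand, positions 21 to 50: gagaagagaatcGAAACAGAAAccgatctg
Ddx58, chr4:40239804-40239833, minus strand, positions −8 to 22: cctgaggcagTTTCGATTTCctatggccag
Ddx60 held 2 matches, both upstream of its start, and Ddx58 held its match on the opposite strand. Those of Eif2ak2, Ifih1 and Ddx58 lay within the first transcribed bases. A match is a run of letters and not a measured binding site.

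Values are the deposited log2 signals, so a difference of 1 is 2-fold, and levels of different genes are not compared because each probe set has its own response. A gene was tested for the size of its difference if it reached the median of an array on at least 1 array, which 12317 genes did. All 8 sensor genes reached it on every array, with 6.38 as their lowest value against array medians between 5.37 and 5.44. Members are counted at 1.5-fold, a log2 difference of 0.585. No difference has a replicate, an error or a p-value. The closest pair of arrays, tofacitinib and GSK 690693, differed with a standard deviation of 0.258 over the tested genes. This spread is used as a yardstick, but it mixes the effects of both compounds with noise. No measure of noise alone exists here. The widest pair was doxorubicin and Compound C, at 0.656. The fibroblast label fitted its markers, with 10 of 10 above the filter and median signals between 10.46 and 10.58. Of 10 macrophage and dendritic cell markers 2 reached the filter, Cd68 and Csf1r, while Ptprc and Adgre1 stayed below it on all 5 arrays. The macrophage list's median signal ran from 4.15 to 4.42 over the arrays. Of the epithelial markers 4 of 5 reached the filter, Krt8, Cldn4, Cdh1 and Krt18, with list medians from 5.35 to 5.57, and none differed 1.5-fold from vehicle. Endothelial markers reached it in 2 of 6, Cdh5 and Kdr (list medians 4.71 to 5.12), and lymphocyte markers in 1 of 5, Nkg7 (4.42 to 5.04). Markers that differed 1.5-fold from vehicle were Pdgfrb (−1.21), Kdr (−0.66) and Lum (0.65) with Compound C, Lum (1.80), Cd68 (1.07) and Col1a1 (−0.64) with doxorubicin and Csf1r (0.59) with GSK 690693, and there was none with tofacitinib. Csf1r reached the filter on the GSK 690693 array only, at 5.52 against 4.93 on the vehicle array, so its call rests on dim signals. The part of these markers in the sensor differences was not tested. Because the samples are bulk RNA, fewer cells that express a gene and less RNA per cell cannot be told apart.

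**Figure D1:**
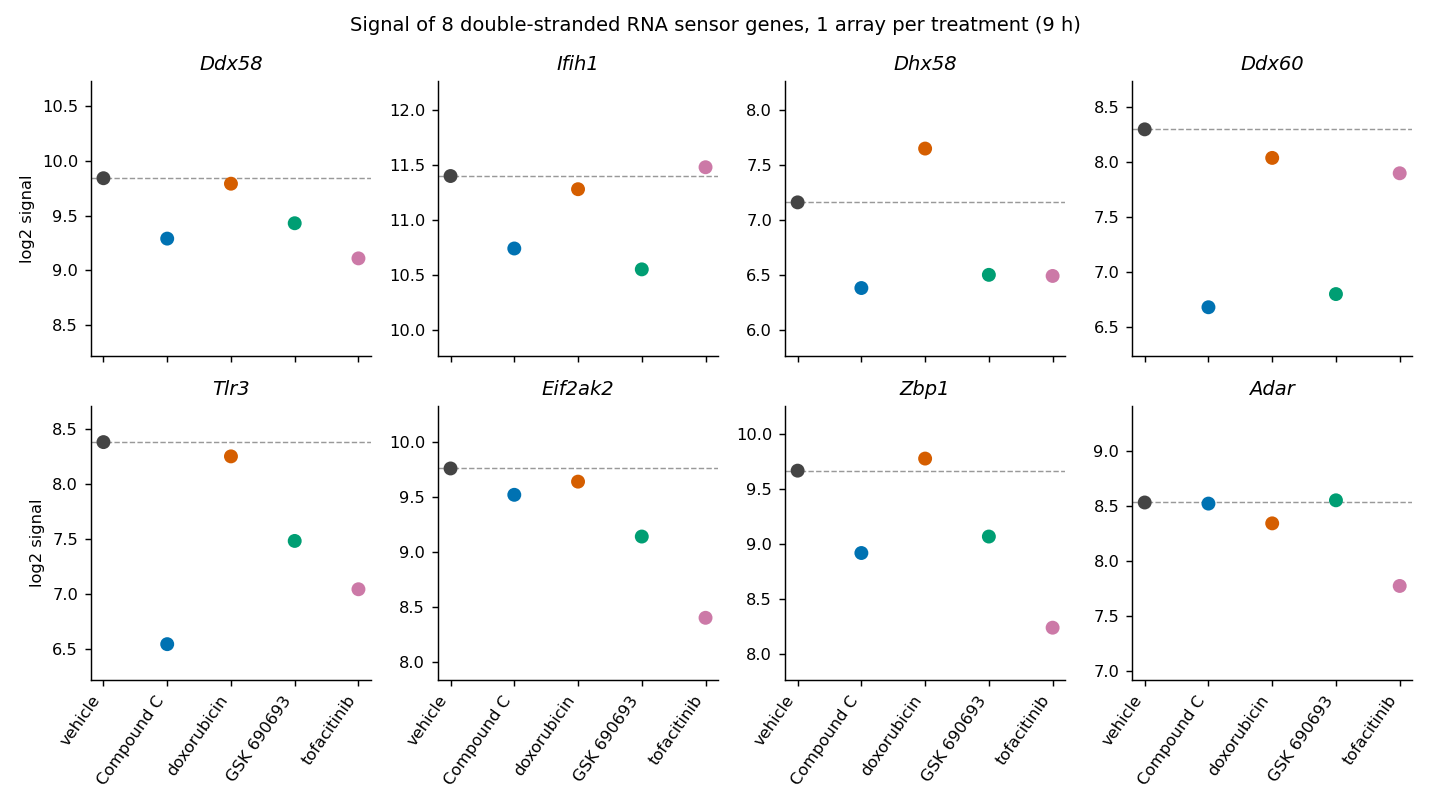
Log2 signal of the 8 sensor genes on the 5 arrays, 1 point per array and 1 panel per gene, each panel covering 2.5 log2 units. The dashed line is the vehicle value, and there are no error bars because each treatment has 1 array. Doxorubicin lies near the line in most panels, Ddx60 and Ifih1 are lowest with Compound C and GSK 690693, and Eif2ak2, Zbp1 and Adar are lowest with tofacitinib.

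Among the cytosolic helicases, Ddx58 read 9.84 on the vehicle array, 9.29 under Compound C, 9.79 under doxorubicin, 9.43 under GSK 690693 and 9.11 under tofacitinib. Vehicle and doxorubicin were the high arrays and tofacitinib the low one. The gene of RIG-I, which recognises short double-stranded RNA with a 5′ triphosphate, spanned 1.66-fold over the 5 arrays, the narrowest range of the 8. It passed 1.5-fold against vehicle with tofacitinib only (−0.73), and stood at −0.55 with Compound C and −0.41 with GSK 690693.

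Ifih1, the gene of MDA5, which prefers long double-stranded RNA, behaved differently with tofacitinib. It read 11.40 on the vehicle array, 10.74 under Compound C, 11.28 under doxorubicin, 10.55 under GSK 690693 and 11.48 under tofacitinib. The low arrays were Compound C (−0.66) and GSK 690693 (−0.85), and tofacitinib was the highest of the 5. Its tofacitinib difference of 0.08 becomes −0.09 when each array is centred on its median over the tested genes, so its side of vehicle is not settled. With GSK 690693, 116 of the 12317 tested genes, Ifih1 included, read as low or lower.

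Dhx58 encodes LGP2, the helicase of this family without signalling domains. Its signal was 7.16 on the vehicle array, 6.38 under Compound C, 7.65 under doxorubicin, 6.50 under GSK 690693 and 6.49 under tofacitinib. The 3 kinase inhibitor arrays lay within 0.12 of each other and all below vehicle, at −0.78, −0.66 and −0.67. Doxorubicin was the high array, at 0.49 above vehicle, which is under 1.5-fold.

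Ddx60, an interferon-induced helicase, had the clearest split between the inhibitors. It read 8.30 on the vehicle array, 6.68 under Compound C, 8.04 under doxorubicin, 6.80 under GSK 690693 and 7.90 under tofacitinib. Compound C and GSK 690693 formed the low pair, and the other 3 arrays stayed within 0.40 of each other. The fold against vehicle was 3.07 lower with Compound C and 2.83 lower with GSK 690693. With GSK 690693, 13 tested genes including Ddx60 read as low or lower, and with Compound C 42 did.

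Tlr3, the endosomal receptor, spanned the widest range of the 8 genes, 3.58-fold. Its signal was 8.38 on the vehicle array, 6.54 under Compound C, 8.25 under doxorubicin, 7.48 under GSK 690693 and 7.04 under tofacitinib. All 3 kinase inhibitor arrays were low, with Compound C lowest (−1.84), then tofacitinib (−1.34) and GSK 690693 (−0.90), and doxorubicin lay beside vehicle. Counting Tlr3 itself, 19 tested genes read as low or lower with Compound C, 27 with tofacitinib and 95 with GSK 690693.

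Eif2ak2 encodes PKR, the kinase that phosphorylates eIF2 alpha when it binds double-stranded RNA. It read 9.76 on the vehicle array, 9.52 under Compound C, 9.64 under doxorubicin, 9.14 under GSK 690693 and 8.40 under tofacitinib. Tofacitinib stood apart on the low side, 2.57-fold below vehicle and 0.74 below the next lowest array. GSK 690693 was 1.54-fold lower, just past 1.5-fold, and Compound C was 1.18-fold lower.

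Zbp1, whose protein binds Z-form RNA and DNA, was also lowest with tofacitinib. Its signal was 9.67 on the vehicle array, 8.92 under Compound C, 9.78 under doxorubicin, 9.07 under GSK 690693 and 8.24 under tofacitinib. Tofacitinib was again the low array, 2.69-fold below vehicle, with 21 tested genes as low or lower. Compound C (−0.75) and GSK 690693 (−0.60) were intermediate, and vehicle and doxorubicin were the high pair.

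Adar passed 1.5-fold with tofacitinib only. It read 8.53 on the vehicle array, 8.52 under Compound C, 8.34 under doxorubicin, 8.55 under GSK 690693 and 7.77 under tofacitinib. The tofacitinib array was low, at −0.76 or 1.69-fold, and the other 4 arrays lay within 0.21 of each other. With 1 probe set, the interferon-inducible long form of ADAR1 and the constitutive short form are not told apart.

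**Figure D2:**
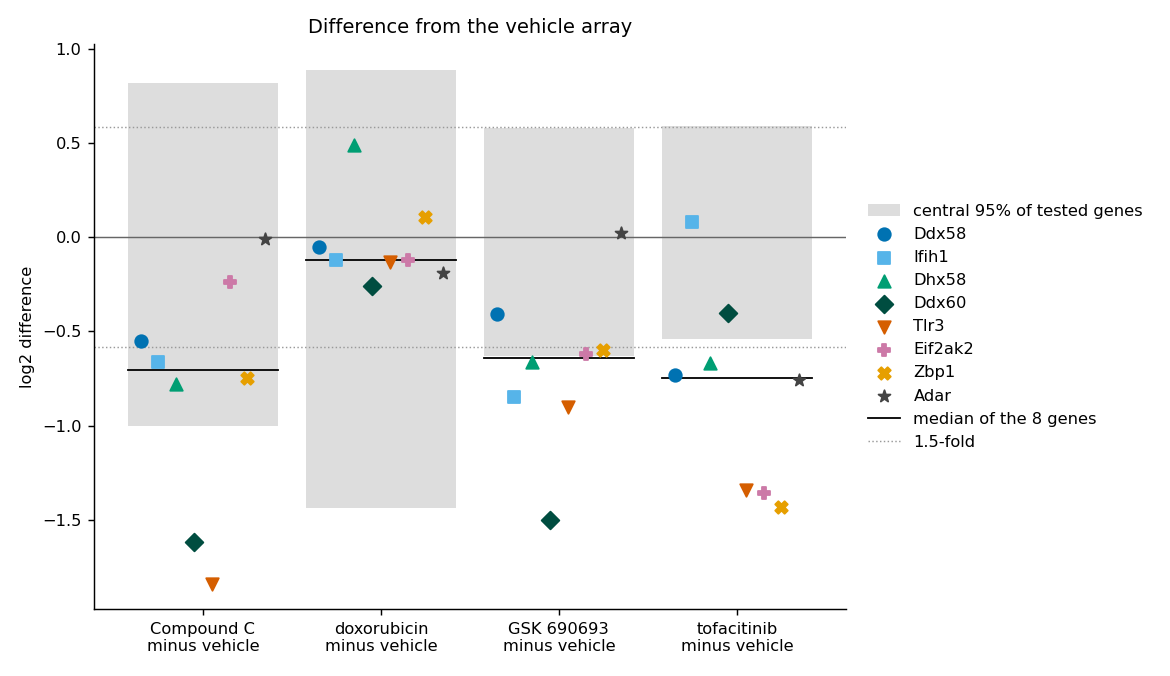
Log2 difference of each compound array from the vehicle array for the 8 genes (symbols), with their median as a black line, the central 95% of the 12317 tested genes as a grey band and 1.5-fold as dotted lines. Tlr3 and Ddx60 lie lowest with Compound C, at −1.84 and −1.62, all 8 genes lie inside the band with doxorubicin, and 6 lie below the band with tofacitinib.

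Set against vehicle, Compound C had 5 of the 8 genes lower by 1.5-fold or more, where 9.99% of all tested genes were. With GSK 690693 there were 6 of 8, against 3.21% of tested genes, and with tofacitinib 6 of 8, against 2.0%. None of the 8 was 1.5-fold higher with any compound. The background for that side was 11.5% of tested genes under doxorubicin, 6.06% under Compound C, 2.66% under tofacitinib and 2.4% under GSK 690693. A count of 0 of 8 on the higher side is therefore near the background for each compound. The 6 lower genes differed between the compounds, since GSK 690693 left out Ddx58 and Adar and tofacitinib left out Ifih1 and Ddx60. Of those left out, Ddx58 (−0.41) and Ddx60 (−0.40) were still on the low side, whereas Adar (0.02) and Ifih1 (0.08) were not. The genes lower with all 3 kinase inhibitors were Dhx58, Tlr3 and Zbp1. The share of all tested genes lower with all 3 was not computed, so this overlap has no background. These comparisons share the vehicle array, so its own deviation enters each of them.

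The median difference of the 8 genes from vehicle was −0.705 with Compound C, −0.64 with GSK 690693 and −0.745 with tofacitinib. The medians of all tested genes were −0.02, 0.04 and 0.09. Centring each array on its median over the tested genes, 7.39 with tofacitinib and 7.22 with vehicle, moves every tofacitinib difference from vehicle down by 0.17. It moves those of Compound C, doxorubicin and GSK 690693 by at most 0.07 in either direction. No member's difference from vehicle crossed 1.5-fold under that change. When vehicle was replaced by the median of the remaining 4 arrays, 3 genes were lower with Compound C (Ifih1, Ddx60 and Tlr3), 2 with GSK 690693 (Ifih1 and Ddx60) and 4 with tofacitinib (Tlr3, Eif2ak2, Zbp1 and Adar). On that reference 10.8%, 1.93% and 1.06% of tested genes were lower in that order, and no sensor gene was lower with every inhibitor.

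Doxorubicin was the exception, with 0 of 8 genes at 1.5-fold in either direction, although it differed from vehicle in the most genes overall. Of the tested genes 14.2% were at least 1.5-fold lower and 11.5% at least 1.5-fold higher. At these shares 0 of 8 is not far from the background. The members ran from −0.26 (Ddx60) to 0.49 (Dhx58), with a median of −0.12 against 0.05 for all tested genes. Against the median of the remaining 4 arrays, 3 of which are the inhibitors, 4 genes were higher with doxorubicin, Dhx58, Tlr3, Zbp1 and Ddx60, where 7.48% of tested genes were. On the vehicle reference, 5 of the 8 genes were within 0.13 of vehicle, namely Ddx58, Ifih1, Tlr3, Eif2ak2 and Zbp1.

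**Figure D3:**
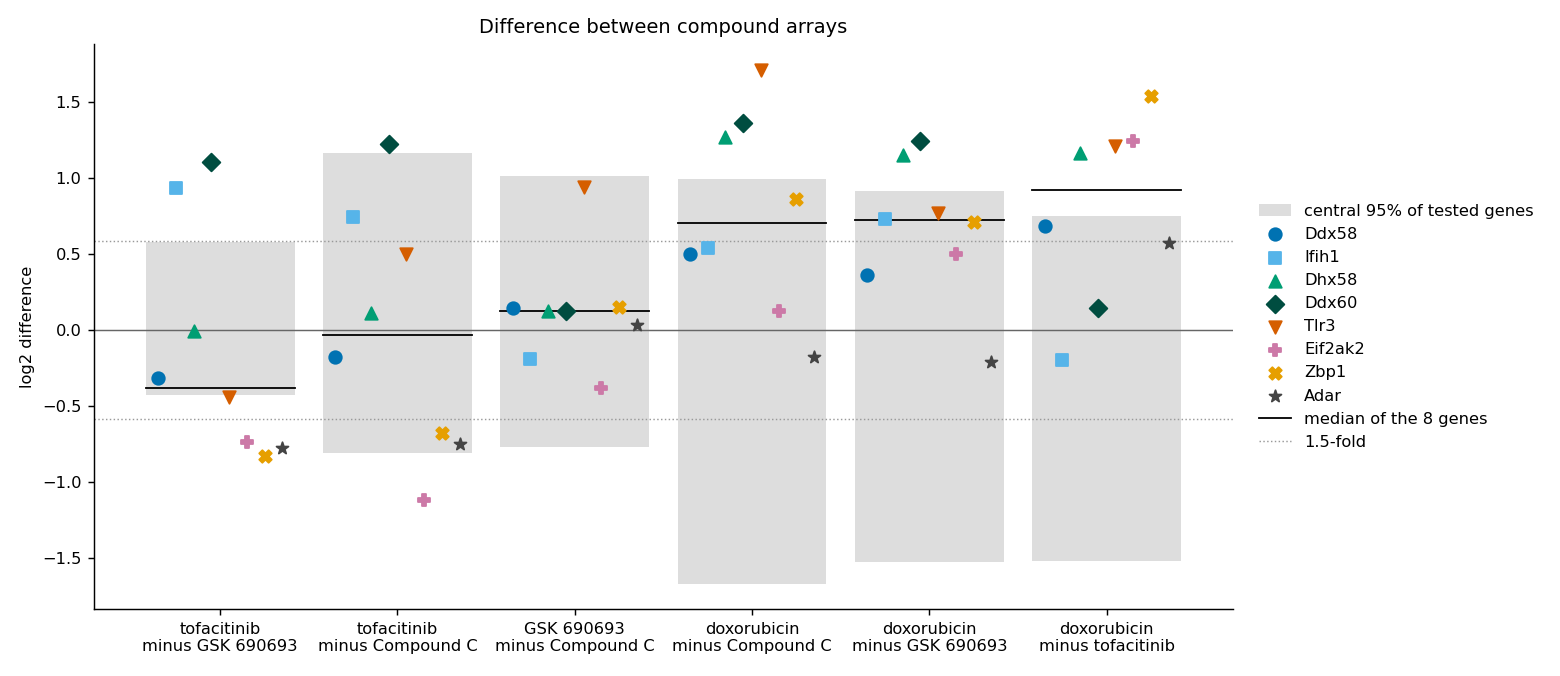
Log2 difference between pairs of compound arrays for the 8 genes, drawn as symbols over the central 95% of the tested genes (grey), with the members' median (black) and 1.5-fold (dotted). Against both GSK 690693 and Compound C, tofacitinib has Ifih1 and Ddx60 on the high side and Eif2ak2, Zbp1 and Adar on the low side, and GSK 690693 and Compound C are 1.5-fold apart in Tlr3 only.

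Comparisons between compound arrays do not involve the vehicle array. Between tofacitinib and GSK 690693, 5 of the 8 genes were at least 1.5-fold apart, against 3.46% of tested genes, and they lay on both sides. Ddx60 (1.10) and Ifih1 (0.93) read higher with tofacitinib, where 25 and 39 tested genes were as high or higher. Zbp1 (−0.83), Adar (−0.78) and Eif2ak2 (−0.74) read lower with tofacitinib, with 50, 58 and 67 genes as low or lower. The helicases Dhx58 and Ddx58 and the receptor Tlr3 stayed under 1.5-fold, at −0.01, −0.32 and −0.44.

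Tofacitinib against Compound C divided the same 5 genes in the same directions, although both comparisons hold the tofacitinib array. Ddx60 was at 1.22 and Ifih1 at 0.74, whereas Eif2ak2 was at −1.12, Adar at −0.75 and Zbp1 at −0.68. This pair differed widely, with 20.8% of tested genes at least 1.5-fold apart, so 5 of 8 is nearer to the background here. The Ifih1 difference in particular was matched or exceeded by 1252 tested genes, and it fell under 1.5-fold, to 0.51, when each array was centred, which leaves 4 genes apart.

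GSK 690693 and Compound C, the compounds that act on AMPK, were 1.5-fold apart in 1 of the 8 genes, against 16.3% of tested genes. That gene was Tlr3, 0.94 higher with GSK 690693. The other 7 lay between −0.38 (Eif2ak2) and 0.15 (Zbp1). A count of 1 of 8 is near the 16.3% of tested genes. With single arrays these values do not show that the compounds act alike on the sensor genes.

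Doxorubicin read above each kinase inhibitor in most of the sensor genes. Against Compound C, doxorubicin had 4 of 8 genes higher by 1.5-fold or more, where 15.4% of tested genes were. They were Tlr3 (1.71), Ddx60 (1.36), Dhx58 (1.27) and Zbp1 (0.86). Against GSK 690693 there were 5 of 8, Ddx60 (1.24), Dhx58 (1.15), Tlr3 (0.77), Ifih1 (0.73) and Zbp1 (0.71), where the background was 11.3%. Against tofacitinib there were again 5 of 8, led by Zbp1 (1.54), Eif2ak2 (1.24), Tlr3 (1.21) and Dhx58 (1.16), with Ddx58 at 0.68 and a background of 5.68%. Centring added Eif2ak2 (0.63) against GSK 690693 and Adar (0.80) against tofacitinib, making 6 of 8 in each. None of the 8 was 1.5-fold lower with doxorubicin in these 3 comparisons, where 14.9%, 16.5% and 16.8% of tested genes were. At these shares 0 of 8 is near the background. All 3 comparisons share the doxorubicin array, so its own deviation enters each of them.

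Likeness among the members was measured as the root mean square distance over the 5 arrays, after each gene was centred on its own mean. The closest pair of the 28 was Eif2ak2 and Zbp1, at 0.244, and the farthest was Ddx60 and Adar, at 0.828. Outside the list, Ddx60 was nearest to Rsad2 (0.147), Cmpk2 (0.163) and Gfra2 (0.185). Rsad2, the viperin gene, read 10.77 on the vehicle array, 9.38 under Compound C, 10.46 under doxorubicin, 9.04 under GSK 690693 and 10.39 under tofacitinib, the same low pair as Ddx60. Within a distance of 0.2 of Ddx60 lay 5 tested genes, a count that also depends on its span of 3.07-fold.

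The genes nearest to Zbp1 were Phf11d (0.146), Ifi204 (0.162) and Igtp (0.181), and 5 tested genes lay within 0.2 of it. Eif2ak2 was nearest to Gm6548 (0.0354), Parp12 (0.105) and Atp5d (0.161), with 13 genes within 0.2. Tlr3 had 0 genes within 0.2, and its nearest were Trim30a (0.206), Unc93a (0.228) and Parp14 (0.277). Trim30a reached the filter on the vehicle array only, at 5.79, and read between 3.62 and 5.06 on the compound arrays. Dhx58 was nearest to Serpinb9f (0.0624), Nos2 (0.073) and Il1a (0.106), which like it were highest with doxorubicin.

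The other 3 members had more tested genes within 0.2, and they were also the 3 with the narrowest spans of the 8. Ddx58 spanned 1.66-fold, Adar 1.72-fold and Ifih1 1.91-fold. The distance is not scaled to a gene's span, so these counts cannot tell a common pattern from a narrow span. Within 0.2 of Ddx58 lay 427 tested genes, led by Samd9l, Nmi and Nlrc5, within 0.2 of Adar 207, led by Fzd9, Gm14133 and Gm7538, and within 0.2 of Ifih1 126, led by Acta1, Gm2115 and Ccl9. Gm14133 and Gm7538 lay near the filter, with highest values of 5.40 and 5.54 against array medians between 5.37 and 5.44. Likeness over 5 values is a description of these arrays.

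The members' pathways were described by lists of their other genes, counted at 1.5-fold against the same backgrounds as the sensors. Of all tested genes 9.99% were lower and 6.06% higher with Compound C, and 14.2% and 11.5% with doxorubicin. With GSK 690693 3.21% were lower and 2.4% higher, and with tofacitinib 2.0% and 2.66%. Of 18 tested genes that carry the signal from RIG-I and MDA5, 4 were lower and 1 higher with Compound C, with a median of −0.275. Mavs, the adaptor of both helicases, read 8.89 on the vehicle array, 8.13 under Compound C, 8.36 under doxorubicin, 9.25 under GSK 690693 and 9.13 under tofacitinib. Compound C was the low array (−0.76), and GSK 690693 (0.36) and tofacitinib (0.24) lay above vehicle. With doxorubicin 4 of the 18 were lower and 1 higher. They included the kinase gene Tbk1 (−1.55) and the ubiquitin ligase genes Traf6 (−1.41) and Traf2 (−1.16), on the array where 0 of the 8 sensor genes differed 1.5-fold. With GSK 690693 1 of 18 was lower and 0 higher, and with tofacitinib 0 were lower and 1 was higher. Centring each array turned the tofacitinib count to 1 lower and 0 higher.

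**Figure D4:**
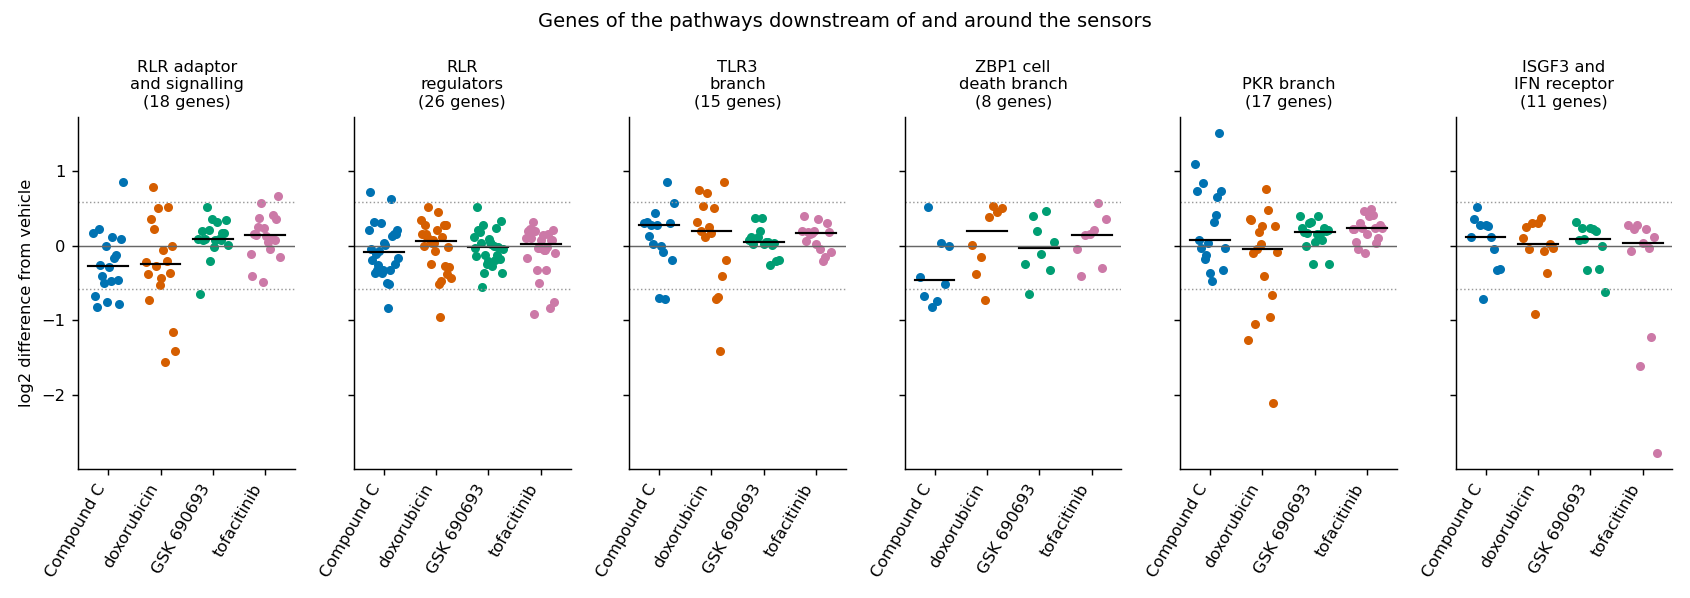
Log2 difference from vehicle of the tested genes in 6 lists around the sensors (RLR, RIG-I-like receptor; IFN, interferon), 1 point per gene and compound, with the list median as a black line and 1.5-fold as dotted lines. Most GSK 690693 and tofacitinib points lie between the dotted lines. Outside them lie Casp8 and Usp18 with GSK 690693 and, with tofacitinib, Traf2 on the high side and Ifi35, Trim25, Zc3hav1, Stat2, Irf9 and Usp18 on the low side, the last 3 at −1.22, −1.61 and −2.77.

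Among 26 tested regulators of the RIG-I-like receptors, 3 were lower with tofacitinib and 0 higher, where 2.0% of tested genes were lower and 2.66% higher. Ifi35 differed by −0.91, Trim25, a ubiquitin ligase gene linked to RIG-I activation, by −0.84, and the antiviral zinc finger gene Zc3hav1 by −0.76. These 3 lay within 0.56 of vehicle with the other compounds. Compound C gave 1 lower and 2 higher, doxorubicin 1 lower and 0 higher, and GSK 690693 0 on both sides, or 1 lower after centring. Rnf122, a ligase gene that restrains RIG-I, was the lower one with Compound C (−0.83) and doxorubicin (−0.96).

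Around TLR3, 15 genes of its trafficking, processing and signalling were tested. Ticam1, the adaptor TRIF, read 6.44 on the vehicle array, 5.72 under Compound C, 5.75 under doxorubicin, 6.18 under GSK 690693 and 6.24 under tofacitinib. It was lower with Compound C (−0.72) and doxorubicin (−0.69). GSK 690693 and tofacitinib, with which Tlr3 itself read lower, had 0 of the 15 genes at 1.5-fold on either side. Among all tested genes 3.21% were lower and 2.4% higher with GSK 690693, and 2.0% and 2.66% with tofacitinib. At these shares 0 of 15 is near the background. Compound C had 1 higher, Traf6 (0.85), and 2 lower, Ticam1 and Rftn1 (−0.70), and after centring 2 were higher. Doxorubicin had 3 higher and 3 lower, or 1 higher against the median of the remaining 4 arrays. Among the 3 higher were Unc93b1 (0.85), which carries Toll-like receptors to endosomes, and the receptor chaperone gene Cnpy3 (0.74).

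Of 8 tested genes of the cell death branch below ZBP1, 0 differed 1.5-fold with tofacitinib, the compound with the lowest Zbp1. With that compound 2.0% of tested genes were lower and 2.66% higher, so 0 of 8 is near the background. Ripk3, the kinase that ZBP1 engages, read 9.14 on both the vehicle and the Compound C array, 9.64 under doxorubicin, 9.19 under GSK 690693 and 9.50 under tofacitinib. Mlkl, the executioner of necroptosis, read 8.71 on the vehicle array, 8.20 under Compound C, 9.16 under doxorubicin, 8.38 under GSK 690693 and 8.41 under tofacitinib. Neither passed 1.5-fold with any compound. Compound C had 3 of the 8 lower, Fadd (−0.82), Gsdmd (−0.74) and Casp8 (−0.68), where 9.99% of tested genes were.

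For PKR, 17 genes of its branch were tested, and the other eIF2 alpha kinases did not share its tofacitinib difference. Eif2ak1 lay within 0.10 of vehicle on every array, Eif2ak4 within 0.30, and Eif2ak3, the kinase PERK, differed by 0.84 under Compound C, −1.05 under doxorubicin, 0.17 under GSK 690693 and 0.30 under tofacitinib. With tofacitinib and GSK 690693 0 of 17 differed 1.5-fold. The shares of tested genes were 2.0% lower and 2.66% higher with tofacitinib, and 3.21% and 2.4% with GSK 690693. At these shares 0 of 17 is near the background. Compound C had 6 higher and 0 lower, with the eIF2 alpha phosphatase subunit gene Ppp1r15a at 1.5 and Atf4 at 1.09, and doxorubicin 1 higher and 5 lower, with Ppp1r15b at −2.10. Among all tested genes 6.06% were higher and 9.99% lower with Compound C, and 11.5% and 14.2% with doxorubicin. Prkra, an activator of PKR, lay within 0.33 of vehicle throughout. Its signals of 4.79 to 5.39 were near or below the filter, with array medians between 5.37 and 5.44.

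Interferon signalling itself was read from 11 tested genes of ISGF3 and the interferon receptors. With tofacitinib 3 were lower, where 2.0% of tested genes were, and 0 higher. Irf9 read 8.98 on the vehicle array, 8.26 under Compound C, 8.07 under doxorubicin, 8.66 under GSK 690693 and 7.37 under tofacitinib, and Stat2 read 10.04, 9.99, 9.67, 9.73 and 8.82 in that order. Usp18, a feedback inhibitor of the interferon receptor, read 10.87, 10.56, 10.84, 10.25 and 8.10. All 3 were lowest with tofacitinib. Compound C and doxorubicin each had Irf9 as the 1 lower gene (−0.72 and −0.91), and GSK 690693 had Usp18 (−0.62). Against the median of the remaining 4 arrays these 3 compounds had 0 lower genes each. The receptor genes Ifnar1 and Ifnar2 lay within 0.35 of vehicle with all compounds. Ifnb1, the interferon gene at the end of the RIG-I, MDA5 and TLR3 paths, was below the filter on all 5 arrays, at 2.56 to 2.88.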

How the data were processed

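The deposited table holds 1 log2 signal per probe set and array for 41345 probe sets on 5 Affymetrix arrays. Per the submitters' processing notes, the authors made these log2 values with Affymetrix Expression Console 1.3.1.187. How probe sets were summarised, the normalization and the genome build were not given in the sources used here. Values between 1.05 and 13.18 were taken to be in base 2. If arrays were forced to a common distribution, a shift of most genes was removed before deposit. Per the labels' protocols, 300 ng of total RNA per sample was labelled.

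The platform annotation gave symbols. It ties 23521 probe sets to 1 gene and 1814 to several, and 16010 are not listed in it, and 0 value columns were left unused. A gene was represented by its probe set with the highest mean. Differences, counts, medians and distances were computed in Python 3.11.15 with pandas 2.3.3, and the counting was tested on simulated data. The number of arrays limits the precision, and no test was possible. The sensor genes and the pathway lists were chosen with earlier results of these data known. Named genes are all 8 sensors, the 3 genes of each pathway list farthest from vehicle with any compound, a fixed set of adaptors and kinases (Mavs, Ticam1, Stat2, Irf9, Prkra, Ripk3, Mlkl and the other eIF2 alpha kinases) and the 3 genes nearest in pattern to each sensor. A gene of the fixed set and a further promoter motif are not reported here. Zc3hav1, Rftn1, Ifnar1, Ifnar2, Ifnb1 and the markers were named after their values were seen. Alternatives were centring, the mean of probe sets, no filter, another reference and a 2-fold threshold.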

Additional observations from a re-analysis of the deposited data

How the results depend on the processing

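Centring each array on its median over the tested genes kept all 18 counts and medians of the sensor genes within 1.5 times or 0.258 of the reported value. Averaging a gene's probe sets and dropping the filter on dim genes could not change them, since each sensor has 1 probe set and passes the filter. Centring changed the sign of 4 of the 32 single differences from vehicle, all of 0.08 or less in size, and the call of 0. Between compounds it changed 3 calls, Ifih1 between tofacitinib and Compound C, Eif2ak2 between doxorubicin and GSK 690693 and Adar between doxorubicin and tofacitinib. At a threshold of 2-fold, the genes lower than vehicle numbered 2 with Compound C, 1 with GSK 690693 and 3 with tofacitinib, where 2.52%, 0.601% and 0.414% of tested genes were. At that threshold the genes apart numbered 1 between tofacitinib and GSK 690693, 2 between tofacitinib and Compound C, 0 between GSK 690693 and Compound C and 2 between doxorubicin and GSK 690693, where 0.479%, 6.07%, 4.05% and 9.64% of tested genes were. The remaining pairs, doxorubicin against Compound C and against tofacitinib, had 3 and 4 genes apart. In these pairs the 95th percentile of the absolute difference over tested genes was 1.33 and 1.26, both above the 2-fold threshold. Their share of tested genes at 2-fold is not given here, so these counts are not set against a background. When vehicle was replaced by the median of the remaining 4 arrays, which hold other inhibitors, 3 genes were lower with Compound C and 2 with GSK 690693, whose median became −0.275. Doxorubicin then had 4 genes higher and a median of 0.56. Of 64 counts over the pathway lists, in settings added after seeing the data, centring moved 10, averaging probe sets 1, no filter 1 and the other reference 18 by over 1.5 times. The count of 3 genes of the ISGF3 list lower with tofacitinib was 3 in each of these settings. No paired analysis was possible because each group is 1 array, and for the same reason no replicate could be left out. What a dim signal hides is unknown, since no detection call was used.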

Other observations

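Genes of other proteins that bind, edit or process double-stranded RNA were mostly within 1.5-fold of vehicle with the kinase inhibitors. Of 16 tested genes, which include the editor Adarb1, the helicase Dhx9 and the microRNA processing genes Dicer1 and Drosha, 0 were 1.5-fold lower with Compound C, GSK 690693 or tofacitinib. Among all tested genes 9.99%, 3.21% and 2.0% were lower in that order. Higher were 1 with Compound C, Cdkn2aip (0.76), 2 with GSK 690693, Dicer1 (0.65) and Dus2 (0.64), and 0 with tofacitinib, and after centring 2, 0 and 0. With doxorubicin 3 were lower, Cdkn2aip (−1.57), Dicer1 (−1.26) and Nkrf (−1.07), and 0 higher, or 2 higher after centring. The doxorubicin shares of tested genes were 14.2% lower and 11.5% higher. Dicer1 read 7.10 on the vehicle array, 7.45 under Compound C, 5.84 under doxorubicin, 7.75 under GSK 690693 and 7.52 under tofacitinib, so its low array was doxorubicin. Adarb1, a relative of Adar, lay within 0.34 of vehicle throughout.

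Among 17 tested helicases and other receptors linked to RNA sensing, 0 differed 1.5-fold with GSK 690693 or tofacitinib. The shares of tested genes were 3.21% lower and 2.4% higher with GSK 690693, and 2.0% and 2.66% with tofacitinib. This count of 0 is therefore near the background. Compound C had 1 lower, Dhx33 (−0.60), with Dhx29 at −0.57, and doxorubicin had 1 lower, Ddx5 (−1.16). After centring the Compound C count was 0, and with probe sets averaged the doxorubicin count was 2. The receptors of single-stranded RNA Tlr7 and Tlr8 were below the filter on all 5 arrays, as were Tlr13, Nlrp1b, Nlrp3 and Nlrp6. Adarb1, Dhx9, Drosha, Dus2 and the receptors below the filter were named after their values were seen.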
